A study of Mus musculus with 5 samples.

Results

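The 35 genes described here encode the contractile apparatus of skeletal muscle together with the calcium store, the creatine kinase, the glycolytic enzymes and the oxygen carrier that serve it. They were chosen by symbol as genes typical of skeletal muscle and not by a rule on their values. Earlier results of these data were known when they were chosen. All 35 were among the 51912 genes listed for each library. RNA came from the dorsolateral prostate of male mice aged 3 months, in 2 libraries labelled Ghr deletion and 3 labelled Tamoxifen-control. The mice labelled Ghr deletion carried the genotype Ghrflox/flox;ROSA26Cre-ERT2+/0, in which a Cre recombinase activated by tamoxifen is made from the ROSA26 locus, a site used in most cell types. The control mice were Ghrflox/flox with no Cre allele listed, so presence of Cre and deletion of Ghr cannot be told apart in this design. Tamoxifen was given to all mice of both genotypes for 5 days at 250 mg/kg a day, and the tissue was collected 1 month after the last dose. The labels do not say whether each library came from a separate animal, so the p-values measure only the spread between these libraries, which may be technical.

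The libraries held 31740687 and 32782683 expected counts under Ghr deletion and 19517831, 29705618 and 41553558 in the controls. Ghr, the growth hormone receptor gene that the design targets, measured 21.5 and 10.2 CPM under the Ghr deletion label, against 10.1, 11.8 and 13.2 CPM in the controls. Its log2 fold change was 0.44 (adjusted p = 0.874 by edgeR's quasi-likelihood test), so the whole-gene count was not lower under the deletion label. That count also takes in exons outside a floxed part and does not check its removal. CPM are expected counts scaled to a common library size by TMM, the normalization of edgeR, and serve to compare 1 gene between libraries. Levels of different genes were compared within a library by TPM, which divides the count by the gene's effective length. Epithelial markers of the labelled tissue were present in every library, with Krt8 at 165 and 109 CPM under Ghr deletion and 190, 144 and 143 CPM in the controls.

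A sarcomere is the repeating unit of a striated muscle fibre. Thick filaments of myosin pull on thin filaments of actin when calcium binds troponin, a complex of a calcium-binding (C), an inhibitory (I) and a tropomyosin-binding (T) subunit; titin spans from the Z-disc to the middle of the sarcomere and nebulin runs along the thin filament. Fast and slow fibres use different genes for myosin and troponin. The prostate's own contractile tissue is smooth muscle, which uses the myosin Myh11 and the actins Acta2 and Actg2 and regulates contraction without troponin. Striated muscle of the urethral sphincter lies close to the prostate in the mouse.

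Acta1, the actin of skeletal thin filaments, was the leading member by TPM in every library, and its coding sequence was compared with those of 2 related actins because close relatives can share reads. Over 1134 coding bases, Acta2 of smooth muscle matched Acta1 at 968 bases (85.4%) and Actc1 of heart matched it at 977 (86.2%), by position in the longest open reading frame of GENCODE M21 transcripts on GRCm38. The longest identical run over the coding sequence was 29 bases in each pair. Of the 1534 different stretches of 50 bases in the Acta1 transcripts, read on both strands, 31 (2.02%) also occurred in another gene, and all 31 were in Gm47692, not in an actin. Counting was less secure for other members. The corresponding share was 47.9% for Tnnc2, all with Ube2c on the opposite strand, and 30.5%, 24.6% and 18.9% for the fast myosins Myh1, Myh2 and Myh4, which share sequence with each other. For Myh7 it was 20.0%, mostly with its neighbour Myh6. Expected counts of Tnnc2 and Ube2c were fractional in 2 libraries and added up to whole numbers (within 0.011) in both, and the same held for Ckm with A930016O22Rik, Mybpc1 with Gm48752 and Atp2a1 with Rabep2 in 4 of 4, 3 of 3 and 4 of 4 libraries. Reads were thus divided between genes on opposite strands, so counts of these members are uncertain to that extent.

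The promoters of Acta1 and Myh4 are shown because they hold the same kinds of muscle motif, while Acta1 was the leading member and Myh4 had at most 1 count outside control 2. Each runs from 250 bases before to 50 bases after the RefSeq start (GRCm38.p6), Acta1 at chr8:123894726-123895025 on the minus strand and Myh4 at chr11:67237562-67237861 on the plus strand. Capitals mark CAGCTG (an E-box of the kind bound by myogenic factors), the CArG box bound by serum response factor, and TATAAA on either strand.
Acta1: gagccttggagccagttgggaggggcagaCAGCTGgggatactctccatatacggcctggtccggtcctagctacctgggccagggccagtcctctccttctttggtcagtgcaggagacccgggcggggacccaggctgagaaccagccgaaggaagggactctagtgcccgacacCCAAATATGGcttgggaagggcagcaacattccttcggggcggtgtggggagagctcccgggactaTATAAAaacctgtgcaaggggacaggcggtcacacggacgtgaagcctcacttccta
Myh4: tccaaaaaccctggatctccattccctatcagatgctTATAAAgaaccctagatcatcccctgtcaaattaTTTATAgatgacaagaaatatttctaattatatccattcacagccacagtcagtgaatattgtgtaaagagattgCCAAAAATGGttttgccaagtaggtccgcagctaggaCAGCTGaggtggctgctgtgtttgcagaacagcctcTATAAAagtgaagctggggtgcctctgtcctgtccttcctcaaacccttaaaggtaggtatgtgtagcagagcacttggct
Promoters were found for 27 of the 35 members, as 33 promoters. CAGCTG, which reads the same on both strands, occurred in 17 of these 33 (51.5%) and in 16.3% of all 32851 promoters in the table. By gene, it occurred in 8 of the 12 members whose RNA was abundant enough to test and that had a promoter, and in 6 of the 15 that were not. The CArG box was found in Acta1, Myh4 and Myl3, 3 of 33 promoters (9.1%) against 1.63% of all promoters. TATAAA occurred in 21.2% of member promoters and 13.6% of all. Another E-box that was searched, CACCTG on either strand, was in 9 of 33 member promoters (27.3%) against 20.2% of all. The MEF2 site was in 2 of 33 (6.1%) against 0.56%. These are matches of letters within the window only.

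The abundance of the genes did not follow the composition of a skeletal fibre. Of the 35 members, 2 (Pvalb, a calcium buffer of fast fibres, and Myot, a Z-disc protein) had 0 counts in every library, and 11, these included, stayed under 10 expected counts in all of them. Cacna1s, the voltage sensor that starts contraction, had 2 and 0 counts under Ghr deletion and 1, 1 and 0 in the controls; Trdn, which holds the release complex together, had a total of 1 count. In contrast, Acta1 had 4312 and 5233 counts under Ghr deletion and 2584, 1608 and 14283 in the controls. The 10 members with the highest mean TPM held 97.1% and 96.9% of the members' summed TPM in the libraries labelled Ghr deletion and 97.7%, 89.0% and 99.3% in the controls. Acta1 by itself made up 45.1% and 43.2% under Ghr deletion, and 66.7%, 54.6% and 61.5% in the controls. These values go against the label of skeletal muscle for the list as a whole, which is called the sarcomere list in what follows.

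**Figure D1:**
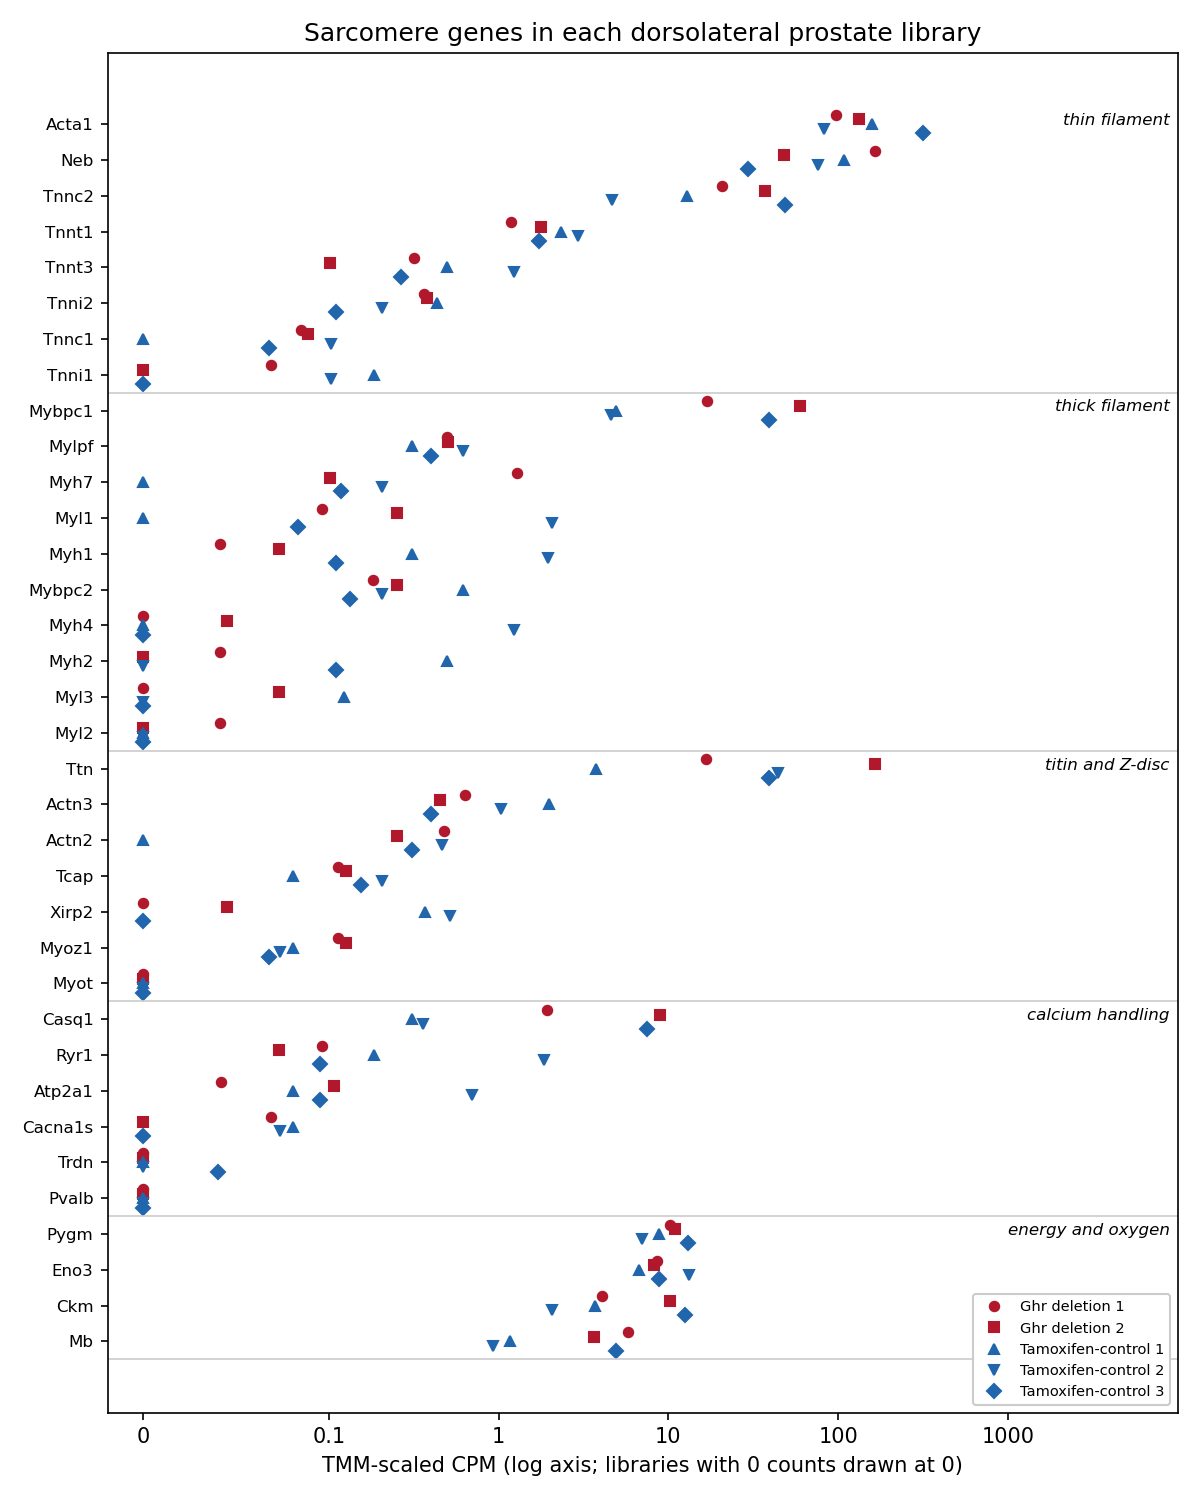
TMM-scaled CPM of each of the 35 members in each library (log axis, with 0 drawn at the left), ordered by role and total count; red points are the 2 libraries labelled Ghr deletion and blue points the 3 controls. Acta1 reached 315 CPM in control 3 and Ttn 164 CPM in Ghr deletion 2, whereas the fast myosins Myh1 and Myh4 reached 1.95 and 1.23 CPM in control 2 and were lower in the other libraries.

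Defining regulators of skeletal muscle were also at or near 0. Myod1, the factor that commits cells to muscle, and Pax7, which marks muscle stem cells, had 0 CPM in every library. Myog, which drives fusion and differentiation, was at 0 CPM in both Ghr deletion libraries and in controls 1 and 2, and at 0.0221 CPM, which is 1 count, in control 3. Chrna1, a subunit of the acetylcholine receptor of the neuromuscular junction, had 0.0908 and 0.0252 CPM under Ghr deletion and 0 CPM in the 3 controls. Other genes of the same lists were measurable: Chodl, the most abundant of the 10 myogenic genes per length, had 6.33 and 6.23 CPM under Ghr deletion and 15.7, 6.16 and 3.40 CPM in the controls. Chrnb1, another receptor subunit and the most abundant of the 9 junction genes, had 2.22 and 3.20 CPM against 1.73, 2.67 and 2.76 CPM. A count of 0 allows up to 3 counts, which is 0.0681 and 0.0757 CPM in the Ghr deletion libraries and 0.185, 0.154 and 0.0662 CPM in the controls, for counting error only.

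Among thin filament genes, actin and nebulin were abundant and the troponins were not balanced. Acta1 (chr8:123891769-123894751) had 97.8 and 132 CPM under Ghr deletion and 159, 82.6 and 315 CPM in the controls, averaging 115 ± 24.2 CPM (SD, n = 2) and 186 ± 118 CPM (SD, n = 3). Control 2 was the lowest and control 3 the highest, with both Ghr deletion libraries between them. Neb (chr2:52136647-52378474), nebulin, had 165 and 48.3 CPM under Ghr deletion and 108, 76.3 and 29.3 CPM in the controls. Its order was not that of Acta1: it was highest in Ghr deletion 1 and lowest in control 3. The effective length of Neb lay between 8553 and 11056 bases over the libraries, where its longest annotated transcript in M21 is 22489 bases, so the weighting by abundance fell mostly on shorter transcripts.

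Tnnc2 (chr2:164777161-164779967), the calcium-binding subunit of fast troponin, had 20.7 and 36.9 CPM under Ghr deletion and 13.0, 4.68 and 48.6 CPM in the controls. Its partners were far lower. Tnni2, the fast inhibitory subunit, had 0.363 and 0.379 CPM under Ghr deletion and 0.432, 0.206 and 0.110 CPM in the controls, and Tnnt3, the fast tropomyosin-binding subunit, had 0.318 and 0.101 CPM against 0.494, 1.23 and 0.265 CPM. Per length, the TPM of Tnnc2 was 62.7 and 46.9 times that of Tnni2 in the Ghr deletion libraries and 28.2, 20.9 and 500 times in the controls, although the 3 subunits form a complex with 1 copy of each. Beside the 913 and 1463 counts of Tnnc2 under Ghr deletion and 210, 91 and 2204 in the controls, Ube2c on the opposite strand was given 179 and 74.1 counts and 16, 17 and 179 counts. Tnnt1, the slow tropomyosin-binding subunit, had 1.18 and 1.77 CPM under Ghr deletion and 2.35, 2.93 and 1.72 CPM in the controls. The slow subunits Tnni1 and Tnnc1 had 3 counts or fewer in every library.

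**Figure D2:**
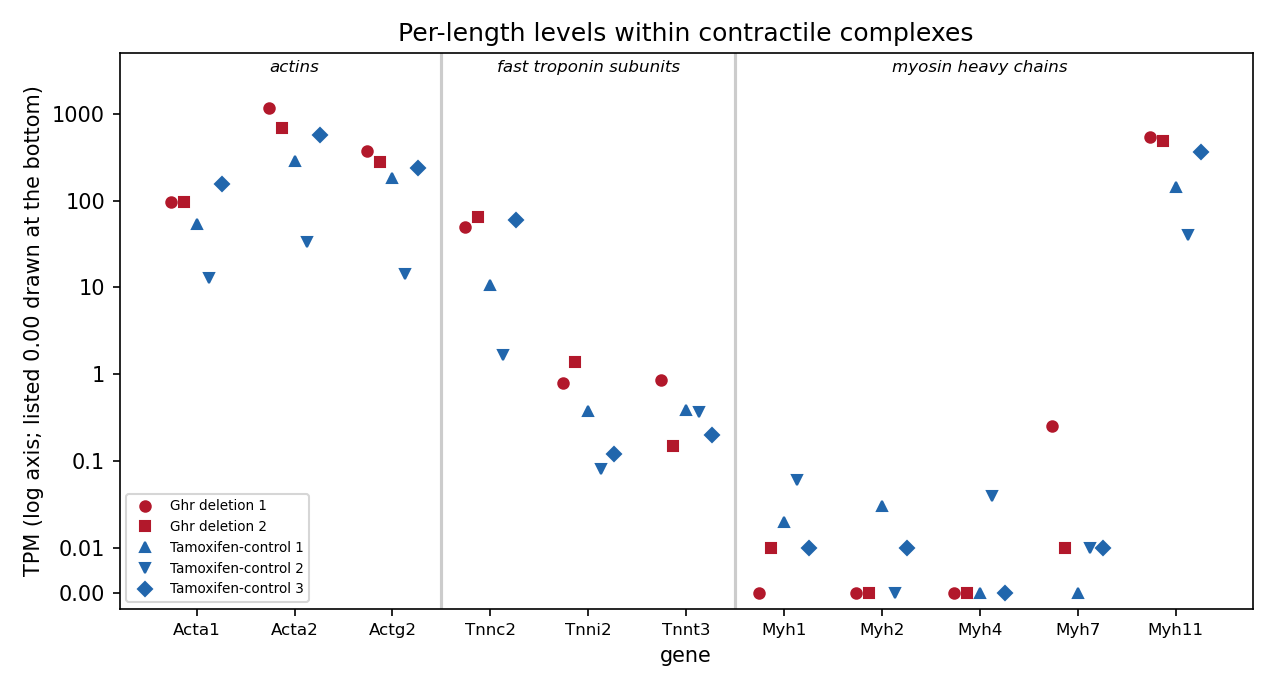
TPM of actins, fast troponin subunits and myosin heavy chains in each library (log axis, listed values of 0.00 drawn at the bottom), with Ghr deletion in red and controls in blue. Acta1 lay below Acta2 in every library, Tnnc2 above its partners Tnni2 and Tnnt3 in every library, and the sarcomeric myosins Myh1, Myh2, Myh4 and Myh7 at or below 0.25 TPM beside smooth muscle Myh11 at 40.1 to 534 TPM.

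The thick filament was represented by a binding protein and hardly by myosin itself. Mybpc1 (chr10:88518279-88605152), the slow type of myosin-binding protein C that runs in stripes along the thick filament, had 16.9 and 59.6 CPM under Ghr deletion and 4.94, 4.57 and 39.4 CPM in the controls. Ghr deletion 2 and control 3 were the highest and controls 1 and 2 the lowest. Mybpc2, the fast type, had 8 and 10 expected counts under Ghr deletion and 10, 4 and 6 in the controls. Mylpf, the fast regulatory light chain, had 0.499 and 0.505 CPM against 0.309, 0.617 and 0.397 CPM in the controls, a spread within which the groups overlapped. The other light chains Myl2 and Myl3 had 2 counts or fewer in every library.

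The heavy chains, the motors of the sarcomere, were highest in control 2 for Myh1 and Myh4 and in Ghr deletion 1 for Myh7. Myh1, of fast IIx fibres, had 1 and 2 expected counts under Ghr deletion and 5, 38 and 5 in the controls. Myh4, of fast IIb fibres, had 0 and 1 counts against 0, 24 and 0, and Myl1, the fast essential light chain, 4 and 10 counts against 0, 40 and 3. Control 2 was thus the highest library for all 3, while Myh2, of fast IIa fibres, had 1 and 0 counts under Ghr deletion and 8, 0 and 5 in the controls and so was absent from the counts of control 2. Fast heavy chains (Myh1, Myh2 and Myh4) summed to 0.0454 and 0.0757 CPM under Ghr deletion and 0.802, 3.19 and 0.221 CPM in the controls, where the exact Poisson 95% interval for control 2 was 2.44 to 4.08 CPM and covers counting error only. Ryr1, the calcium release channel, had 4 and 2 counts under Ghr deletion and 3, 36 and 4 in the controls, and Atp2a1, the fast calcium pump, 1.02 and 4.27 counts against 1, 13.6 and 4.04. The smooth muscle genes of control 2 summed to the lowest level, and the part of this in the fast fibre counts was not tested.

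Myh7, the slow and cardiac heavy chain (chr14:54970684-54994626), had 56.7 and 4 expected counts under Ghr deletion and 0, 4 and 5.31 in the controls. In Ghr deletion 1 it was 57 of 59 rounded myosin heavy chain counts (96.6%, exact 95% interval 88.3% to 99.6%), and in control 2 it was 4 of 66 (6.06%, 1.68% to 14.8%). These intervals cover counting error only and not the division of reads between genes. The other libraries held too few counts for a share. By TPM, deposited with 2 decimals, the shares were 100% and 9.09%. Myh7 counts were divided with Myh6: the pair summed to 167 counts in Ghr deletion 1, 110 of them given to Myh6. For troponin I, 2 of 18 counts in Ghr deletion 1 and 2 of 6 in control 2 were of the slow gene Tnni1, too few to compare.

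Titin varied widely between libraries. Ttn (chr2:76703980-76982547) had 16.6 and 164 CPM under Ghr deletion and 3.77, 44.3 and 39.0 CPM in the controls, averaging 90.3 ± 104 CPM (SD, n = 2) and 29.0 ± 22.1 CPM (SD, n = 3). Ghr deletion 2 was the highest library, while Ghr deletion 1 lay below controls 2 and 3. Spread over so long a gene these counts were low per length, at 0.53 and 3.22 TPM under Ghr deletion and 0.03, 0.56 and 0.36 TPM in the controls. The effective length assigned to Ttn ranged from 14521 to 63099 bases, below the longest M21 transcript of 106824 bases. At the Z-disc, the cross-linker of actin filaments Actn2 had 0.476 and 0.252 CPM against 0, 0.462 and 0.309 CPM, and its fast-fibre relative Actn3 had 0.635 and 0.454 CPM against 1.98, 1.03 and 0.397 CPM. Xirp2, an actin-binding protein of muscle junctions, had 0 and 1 counts under Ghr deletion and 6, 10 and 0 in the controls. Tcap, which caps titin at the Z-disc, and Myoz1, a calcineurin-binding Z-disc protein, had 1 to 7 counts.

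Casq1 (chr1:172209894-172219868), the calcium-storing protein of the fast sarcoplasmic reticulum, was the only calcium-handling gene of the list that passed the filter on low counts. It had 1.93 and 8.91 CPM under Ghr deletion and 0.309, 0.360 and 7.52 CPM in the controls, with the highest values in Ghr deletion 2 and control 3. The channel that would empty that store, Ryr1, and the pump that would fill it, Atp2a1, did not share this order.

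The 4 genes of energy and oxygen supply were measurable in every library. Ckm (chr7:19404776-19422841), muscle creatine kinase, had 4.08 and 10.2 CPM under Ghr deletion and 3.70, 2.05 and 12.5 CPM in the controls. Mb, myoglobin, had 5.79 and 3.66 CPM against 1.17, 0.925 and 4.92 CPM. Pygm, muscle glycogen phosphorylase, was among the steadiest members, at 10.3 and 10.95 CPM under Ghr deletion and 8.83, 6.99 and 13.1 CPM in the controls. Eno3, the muscle enolase, had 8.60 and 8.25 CPM against 6.73, 13.3 and 8.78 CPM. Control 3 was the highest library for Ckm and Pygm, Ghr deletion 1 for Mb and control 2 for Eno3, and for each of the 4 genes the groups overlapped.

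Between groups, none of the sarcomere genes was called. Of the 35 members, 16 passed edgeR's filter on low counts and 19 did not, and 0 of the 16 reached an adjusted p of 0.05 or an unadjusted p of 0.05. Over all 18590 genes tested, 0 were called (0.0%), the smallest adjusted p was 0.0935, and 792 genes (4.26%) had an unadjusted p below 0.05. The lowest adjusted p among the members was 0.874. For none of the 16 did the groups fall apart without overlap, where over all genes 10.8% had both Ghr deletion libraries above every control and 12.5% had both below. Among the 19 members that were not tested, Myh1 was lower in both Ghr deletion libraries than in any control, and Myoz1, at 5 and 5 counts against 1, 1 and 2, was higher, both on few counts. DESeq2 and limma-voom also called 0 members, while DESeq2 called 81 genes of all and limma-voom 0.

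Fold changes of the tested members lay on both sides of 0, with 11 positive and 5 negative and a median of 0.30 on the log2 scale, against -0.01 over all genes tested and 49.4% of those positive. The highest was Ttn at 1.63 (SE 1.18, 95% interval -1.28 to 4.54) and the lowest Tnnt3 at -1.61 (SE 0.91, interval -3.86 to 0.64). Mybpc1 followed at 1.22 (SE 1.06), Mb at 0.98 (SE 0.77) and Casq1 at 0.95 (SE 1.42). Acta1 was at -0.69 (SE 0.56, interval -2.08 to 0.69), Actn3 at -1.02 (SE 0.75) and Tnnt1 at -0.66 (SE 0.43). The intervals were narrowest for Pygm, at 0.14 (-0.64 to 0.91), and Eno3, at -0.19 (-1.02 to 0.64). By role, 6 of 8 thin filament genes were tested and 3 of them were positive, both tested of 10 thick filament genes were positive, 2 of 3 tested titin and Z-disc genes were positive, and 3 of 4 energy genes. The direction depended on scale: on log2(TPM + 1), limma called 8 of the 16 members higher, while the median of all tested genes was itself raised by 0.87 and 2234 genes were called higher against 60 lower.

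**Figure D3:**
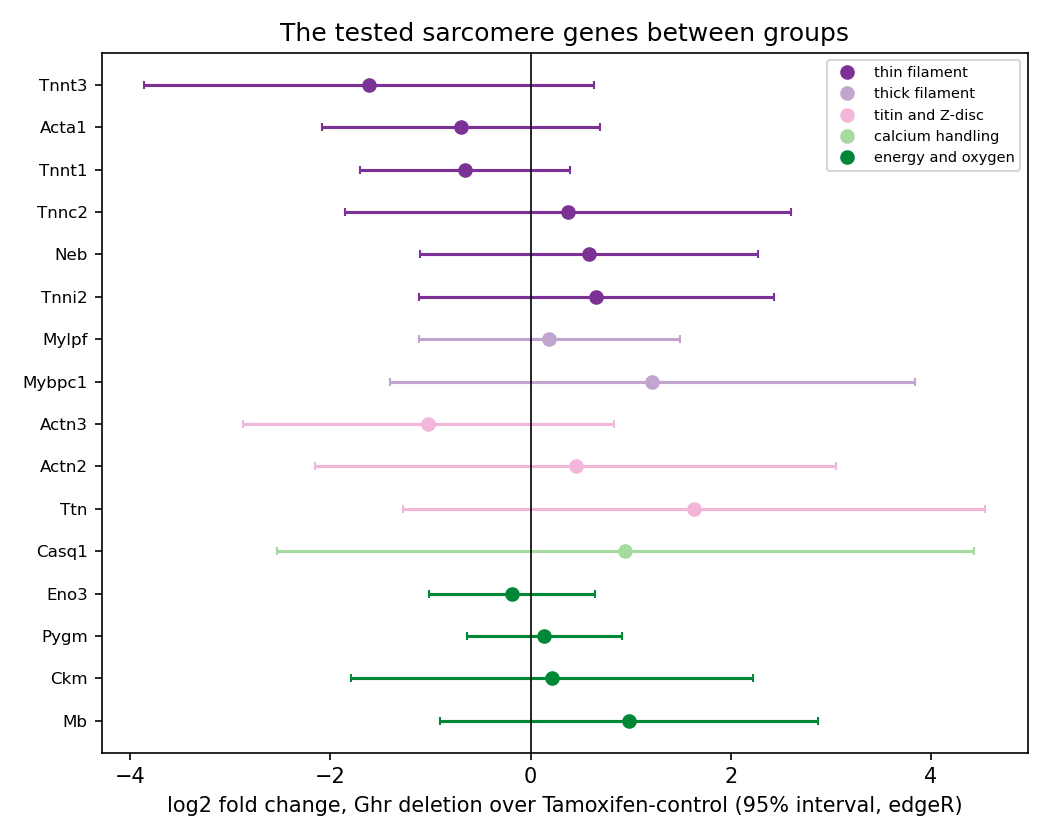
log2 fold change of the 16 tested sarcomere genes, Ghr deletion over Tamoxifen-control, with 95% intervals from edgeR, coloured by role. Every interval includes 0; that of Casq1 runs from -2.54 to 4.43 and that of Pygm from -0.64 to 0.91.

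For several members the libraries of 1 label differed widely. Mybpc1, Casq1, Tnnc2 and Ckm, which were picked here after their values were seen, were each lowest in controls 1 and 2, and control 3 lay among or above the libraries labelled Ghr deletion. Leaving out 1 library moved the fold change of several members. Mybpc1 was at 0.04 without Ghr deletion 2 and at 3.00 without control 3, Mb at 2.16 and Acta1 at -0.08 without control 3. Ttn was at -0.81 without Ghr deletion 2, and Neb at -0.56 without Ghr deletion 1.

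Summed over the 35 genes, the sarcomere list reached 354 and 488 CPM under Ghr deletion and 318, 252 and 522 CPM in the controls, so that the groups overlapped. As a share of all expected counts this was 0.0491% and 0.0589% against 0.0264%, 0.0165% and 0.0570%. Smooth muscle put the 5 libraries in the same order: 12 of its genes summed to 7871 and 8946 CPM under Ghr deletion and 6739, 2957 and 9918 CPM in the controls. Control 2 had the lowest and control 3 the highest sum of both lists. In bulk tissue, fewer cells of a type and less RNA per cell cannot be told apart. Relative to smooth muscle within each library, the summed TPM of the sarcomere list was 5.38% and 7.54% under Ghr deletion and 6.24%, 12.6% and 10.4% in the controls. The 12 smooth muscle genes all passed the filter, 0 were called, 11 had positive fold changes and their median was 0.26.

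**Figure D4:**
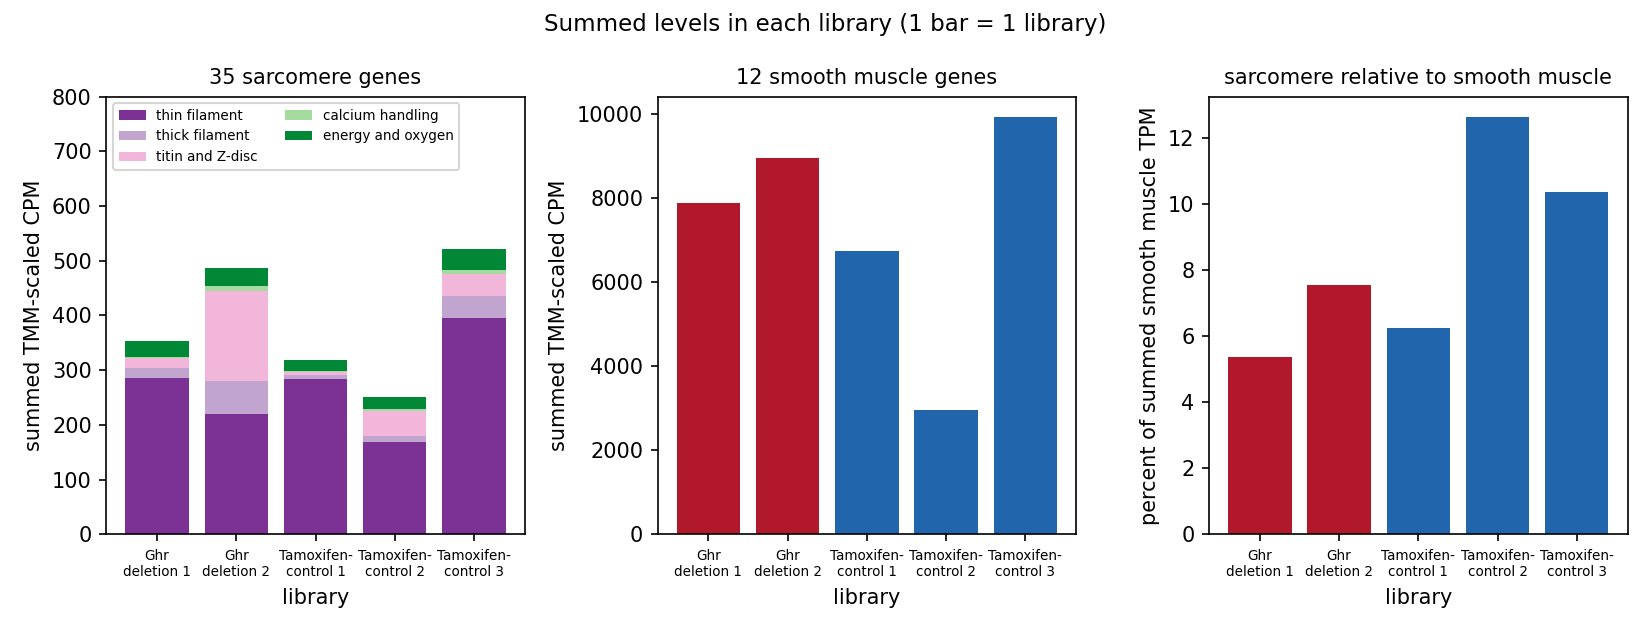
Summed TMM-scaled CPM of the 35 sarcomere genes by role (left) and of 12 smooth muscle genes (middle), and the sarcomere sum as a percent of the smooth muscle sum in TPM (right), with 1 bar per library and Ghr deletion on the left. Titin makes the tall Z-disc segment in Ghr deletion 2, and control 2 has the lowest sums but the highest ratio, 12.6%.

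Among actins, the skeletal gene was a minor share. Acta1 was 5.85% and 9.04% of the TPM of Acta1, Acta2, Actg2 and Actc1 together in the libraries labelled Ghr deletion and 10.4%, 21.1% and 15.9% in the controls. Set against smooth muscle myosin, the TPM of Acta1 was 17.9% and 20.0% of that of Myh11 under Ghr deletion and 37.8%, 32.0% and 42.3% in the controls. Both ratios were lower in the 2 Ghr deletion libraries than in any control; they were looked at after the levels were known, and an exact permutation test of 2 against 3 libraries cannot give a two-sided p below 0.2. Myh11 had 3045 and 3693 CPM under Ghr deletion and 2260, 1415 and 3990 CPM in the controls, and Acta2 had 1614 and 1297 CPM against 1100, 294 and 1537 CPM. Des, the intermediate filament shared by smooth and striated muscle, had 226 and 243 CPM against 309, 89.9 and 295 CPM.

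Other genes of striated muscle were not called either. Of 56 such genes outside the list, 26 were tested, 0 were called, 11 were positive and 15 negative, with a median of -0.11, where the sarcomere list had a median of 0.30, and the difference between the lists was not tested. The most abundant per length were Smpx, Art3, Myom1 and Jph2. Myom1, which cross-links thick filaments at the M-band, had 72.6 and 118.6 CPM under Ghr deletion and 43.3, 63.0 and 94.7 CPM in the controls. Jph2, which ties the cell membrane to the calcium store in heart and smooth muscle too, had 36.2 and 66.4 CPM against 35.6, 19.5 and 70.9 CPM. Smpx, a small protein of striated muscle, had 34.3 and 11.2 CPM against 66.7, 29.9 and 11.2 CPM. Of 9 neuromuscular junction genes 4 were tested, of 10 myogenic genes 1, and of 10 cardiac genes 6, and 0 were called in each list. Tnnt2, the cardiac troponin T, had 3.43 and 2.68 CPM under Ghr deletion and 45.4, 23.4 and 2.93 CPM in the controls, higher in controls 1 and 2 than elsewhere.

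Markers of other tissues near the prostate were measured beside the sarcomere list. Of 8 seminal vesicle genes, 6 were lower in both Ghr deletion libraries than in any control, where 12.5% of all genes were, and of 7 adipocyte genes, 6 were higher in both, where 10.8% of all genes were. edgeR called 0 genes of either list, with 5 at an unadjusted p below 0.05 in each. The seminal vesicle values were uneven among the controls: Svs4, a secreted protein of the gland, had 3520 and 1433 CPM under Ghr deletion and 137990, 59764 and 4878 CPM in the controls, so that control 3 lay near the Ghr deletion libraries. Svs2 and Pate4 overlapped between groups, with Svs2 at 67744 and 118600 CPM against 68572, 47338 and 140510 CPM. The 8 seminal vesicle genes summed to 105000 and 183270 CPM under Ghr deletion and 451760, 234410 and 234780 CPM in the controls. The summed adipocyte level was 16.2 and 5.10 CPM against 2.78, 2.52 and 2.80 CPM. Of 6 nerve genes 0 were without overlap, and of 6 urothelial genes 1 was lower in both Ghr deletion libraries. The part of these tissues in the member values was not tested.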

How the data were processed

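RNA was extracted from frozen dorsolateral prostate and made into stranded total RNA libraries, per the protocols in the labels. RSEM 1.3.0, STAR 2.5.3a, bcl2fastq 2.20.422 and the GRCm38 build are named in the submitters' processing notes. For the order of steps, annotation release, strand setting and read length, the entry is: not given in the sources used here. Each library has a gene table that the authors deposited. Per the file headers, it holds expected counts, which RSEM splits among genes when a read maps to more than 1, TPM with 2 decimals, and the effective length, an abundance-weighted mean over transcripts.

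Symbols were found for 99.46% of the 51912 gene identifiers. Coordinates and transcripts are from GENCODE M21, and promoters from RefSeq. Expected counts were rounded, filtered with filterByExpr by group, scaled by TMM (factors 0.656 to 1.39) and tested by edgeR quasi-likelihood (edgeR 4.0.16, R 4.3.3), with Benjamini-Hochberg adjustment over all 18590 genes tested and a threshold of 0.05. The fit was tested on simulated data. Simulated libraries of a group differed only in size and random spread, so that test does not cover libraries of unlike tissue content. Positive log2 fold changes are higher under Ghr deletion. Standard errors and 95% intervals were derived from the F statistics. The biological coefficient of variation was 42.7%. Alternatives were other scalings and filters, DESeq2 1.42.0, limma 3.58.1 on voom weights or on log2(TPM + 1) and log2(TPM + 0.1), a replicate block, and fits without each library; leaving out controls 1 and 2 together and scaling to smooth muscle were chosen after seeing the data. The members and all gene lists were chosen with earlier results of these data known. Values in every library are given for the 24 members with at least 10 expected counts in any library, and for at most 4 genes of other lists by mean TPM, besides Ghr, Myod1, Myog, Pax7, Chrna1, Myh11, Acta2 and Des.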

Additional observations from a re-analysis of the deposited data

How the results depend on the processing

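The count of called members stayed at 0 under both other edgeR scalings, both other filters, DESeq2, limma-voom, each fit without 1 library and the fit without controls 1 and 2. Fits without a Ghr deletion library leave 1 such library and assume that it varies like the others. The count was 8 on log2(TPM + 1) and 5 on log2(TPM + 0.1), all higher, scales on which the median of all genes rose by 0.87 and 1.33; library size as the only scaling moved that median to 0.59. Over all genes the calls numbered 2 without the filter on low counts, 81 with DESeq2, 2294 on log2(TPM + 1) and 733 on log2(TPM + 0.1), and 0 to 48 in fits without 1 library, the 48 without control 3. Other striated muscle genes had 2 and 1 calls on the TPM scales. With replicate number as a replicate block, edgeR called 1126 genes, 5 members (all higher) and 2 other striated genes. Control 3 shares its number with no Ghr deletion library, so the group difference in that fit rests on replicates 1 and 2. Only 2 numbers are shared, with correlations of deviations of 0.28 and 0.30 within them and of -0.30 and -0.28 between numbers 1 and 2. The deviations of 2 Ghr deletion libraries from their mean mirror each other, so these correlations cannot decide whether the numbers pair the libraries. The main fit assumed no pairing. The member median was 1.93 on log2(TPM + 0.1). Without control 1, 2 or 3 it was 0.04, 0.27 and 0.23, over 16, 16 and 15 members. Without Ghr deletion 1 or 2 it was -0.27 over 23 members and -0.66 over 24. The filter passed more members there than the 16 of the main fit, so these medians also reflect a changed set of genes. The slow share by troponin I was 11.1% of 18 counts in Ghr deletion 1 and 33.3% of 6 counts in control 2, too few to check the myosin share.

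The summed member TPM had a log2 ratio of 0.89, against 0.21 in TMM-scaled CPM, 1.55 without the 3 highest members, 0.40 without control 2, 2.07 without control 3, -0.20 without controls 1 and 2 and -0.59 relative to smooth muscle. Signs turned for single genes, and the cause was not tested. On log2(TPM + 1) and log2(TPM + 0.1), fold changes were 0.99 and 1.02 for Acta1, 0.61 and 0.93 for Tnnt1, 0.15 and 0.25 for Tnnt3, 0.07 and 0.28 for Actn3, and 1.05 and 1.24 for Eno3, which was 0.46 with library size as the only scaling. Neb was -0.02 with the replicate block. Without controls 1 and 2, which leaves 1 control library, assumed to vary like the others, Ckm was -0.81, Tnnc2 -0.75, Mb -0.05, Actn3 0.46, Casq1 -0.48, Pygm -0.30 and Mybpc1 -0.04. Without 1 library, ranges were -0.07 to 0.93 for Actn2, -0.53 to 3.99 for Casq1, -0.59 to 1.31 for Ckm, -0.39 to 0.12 for Eno3, -0.56 to 1.22 for Neb, -0.05 to 0.42 for Pygm, -0.10 to 1.71 for Tnnc2 and -0.81 to 2.49 for Ttn; signs were kept at 0.04 to 3.00 for Mybpc1, 0.60 to 2.16 for Mb and -1.05 to -0.08 for Acta1. With 2 and 3 libraries, the 95% intervals of most members span several-fold changes in both directions, and low counts leave 19 members untested.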
